A study of Brachypodium distachyon with 6 samples.

Results

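Phenylalanine ammonia-lyase (PAL) removes ammonia from phenylalanine and yields cinnamic acid, the entry step of the phenylpropanoid pathway. That pathway supplies lignin, the phenolic polymer of xylem walls and of the Casparian strip in roots, as well as hydroxycinnamic acids and flavonoids. Grasses also have a bifunctional enzyme, phenylalanine/tyrosine ammonia-lyase (PTAL), which in addition turns tyrosine into coumaric acid and so bypasses the hydroxylation of cinnamic acid. PAL is encoded by small gene families, and in many plants single copies are known to respond to wounding and to pathogens. The family described here comprised 8 loci of Brachypodium distachyon, a small temperate grass, chosen by locus identifier from a fixed list, with Bradi3g49250 given as the PTAL copy and the other 7 as PAL copies. All 8 were present among the 31694 loci of the deposited table. Each had 1 transcript, and all 8 passed the expression filter that left 20061 of 42868 transcripts for testing.

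The study compared untreated roots of line Bd21 with roots of plants exposed to 2,4-dichlorophenoxyacetic acid (2,4-D), a synthetic auxin, in 3 libraries each. All plants grew for 7 days on the same medium low in nitrogen before the treatment, which was a soak of whole plants in 50 µM 2,4-D for 1 h. RNA was taken 7 days after the treatment. The sources differ on the treated tissue: the extraction protocol names roots that carry nodule-like structures, outgrowths that formed after the treatment, while the source label names the structures themselves. A difference between groups may therefore also be a difference in the tissue taken. The labels do not say whether untreated plants were soaked without the hormone, or how many plants a replicate held. The samples hold many cell types, so fewer cells of a type and less RNA per cell cannot be told apart. The tissue could not be checked against marker genes, because no identifier in the counts carries a name.

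Library totals ranged from 12528548 to 14146109 counts, and 3 counts corresponded to 0.212 to 0.239 CPM (the count over the library total, times 1000000). Among the treated libraries, replicate 3 stood apart. Pearson's r on log2(CPM + 1), taken over the tested transcripts, was 0.924 and 0.914 between it and treated replicates 1 and 2, against 0.981 between those. Among untreated libraries replicate 3 was the most distant, at 0.934 and 0.950 to replicates 1 and 2, against 0.964 between those. Transcripts of 1 library are no independent replicates, so these values describe the libraries. The lowest chi-square of counts for a pair within a group, per degree of freedom, was 18.5, well above sampling noise, and each library was counted once. Fold changes and the PTAL share below are given with and without 2,4-D replicate 3 and untreated replicate 1. The family sum is also given without 2,4-D replicate 3. Leaving out both was chosen after the values of the copies were seen. The order of levels, the spread between replicates and the likeness to other transcripts are given with all libraries only.

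The copies fell into a group of 4, a pair and 2 lone loci. The group of 4 lay on the minus strand of chromosome 3 (annotation version 2.1, 50689769 to 50716696), within 26.9 kb. In that order along the chromosome it held the PTAL copy Bradi3g49250.2 and the PAL copies Bradi3g49260.1, Bradi3g49270.1 and Bradi3g49280.1. The PTAL copy was separated from Bradi3g49260.1 by 8.03 kb, and the next gaps were 1.88 and 3.77 kb with no annotated locus in between. Bradi3g47110.1 and Bradi3g47120.1 formed a pair on the plus strand of the same chromosome (48876022 to 48896888), 15.9 kb apart. Bradi3g48840.1 (chromosome 3, 50330480 to 50332787, plus strand) stood alone, as did Bradi5g15830.1 (chromosome 5, 19319891 to 19322517, minus strand). Exonic lengths were alike, from 2308 to 2657 bp. The PTAL copy, Bradi3g49260.1 and Bradi5g15830.1 had 2 exons, with introns of 1118, 1858 and 105 bp, and the other 5 copies had 1 exon.

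The PTAL intron contains another annotated transcript, Bradi3g49255.1, on the opposite strand (50692075 to 50692678). It shared no exonic base with PTAL and averaged 24.0 CPM in untreated and 15.1 CPM in treated roots. This difference was not called (log2 fold change -0.76, edgeR adjusted p = 0.139). The counting command sets no strand option, so reads of this transcript and of PTAL precursor RNA cannot be told apart. No other annotated transcript overlapped a copy. Fragments that fit near-identical copies equally well may have been dropped or placed in either copy, which could affect the levels of neighbouring copies; how alike the copies are in sequence was not analysed here.

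**Figure D1:**
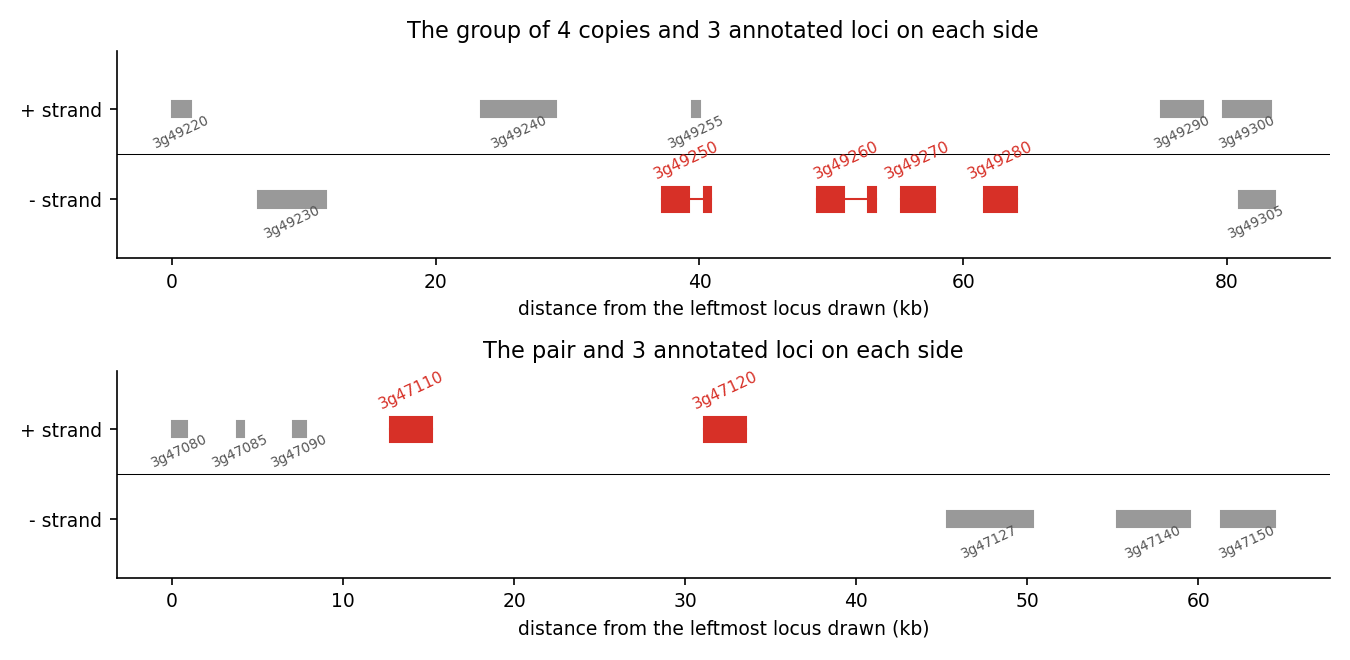
Maps of the group of 4 copies (top) and of the pair (bottom) on chromosome 3, drawn to scale in kb from the leftmost locus shown, with the plus strand above and the minus strand below the line. Red boxes are exons of the ammonia-lyase copies and grey boxes are 3 annotated loci on each side and the locus inside the PTAL intron; the 4 copies share a strand, as do the 2 of the pair.

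PTAL and Bradi3g49260.1 supplied most ammonia-lyase transcripts in these roots. Per kilobase of exon and averaged over the 6 libraries, the level was 432 CPM for the PTAL copy and 381 CPM for Bradi3g49260.1. Bradi5g15830.1 followed with 91.2 CPM per kilobase. Below it came Bradi3g49280.1 with 59.3, Bradi3g49270.1 with 50.0, Bradi3g48840.1 with 37.5, Bradi3g47110.1 with 36.2 and Bradi3g47120.1 with 7.02 CPM per kilobase. The PTAL copy ranked 119th of all transcripts by level per kilobase in untreated roots and 188th in treated roots, and Bradi3g49260.1 ranked 196th and 154th.

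This order held within every library at 3 of its 7 steps. Bradi3g49260.1 exceeded Bradi5g15830.1, Bradi5g15830.1 exceeded Bradi3g49280.1, and Bradi3g47110.1 exceeded Bradi3g47120.1 in 6 of 6 libraries, each with an exact two-sided sign-flip p of 0.0312, the smallest that 6 libraries allow (0.0729 adjusted over 7 steps). PTAL was above Bradi3g49260.1 in 4 of 6 libraries, and the mean log2 ratio of 0.21 was smaller than its SD of 0.71 (exact sign-flip p = 0.469). Bradi3g49280.1 was above Bradi3g49270.1, and Bradi3g48840.1 above Bradi3g47110.1, in 5 of 6 libraries (exact sign-flip p = 0.0938 for each). Bradi3g49270.1, placed by its mean above Bradi3g48840.1, was above it in only 2 of 6, untreated replicate 1 and 2,4-D replicate 3. No step passed an adjusted p of 0.05. At the 3 steps that held in every library p was already the smallest possible, so failing there is no evidence against the order. The order was taken from the means of the same 6 libraries, untreated and treated together. These p-values therefore describe the order and are no independent test of it.

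The copies with 2 exons had the steadier levels and were also the most abundant. PTAL stood at 1045, 1101 and 1833 CPM in untreated replicates 1, 2 and 3 and at 880.0, 1141 and 894 CPM in the treated ones. Its highest value was thus an untreated one, and the groups overlapped. Bradi3g49260.1, its neighbour, had 1114, 743 and 868 CPM untreated and 774, 749 and 1742 CPM treated. Bradi5g15830.1, the copy on chromosome 5, had 247, 141 and 199.6 CPM untreated and 156, 124 and 512 CPM treated. For both PAL copies the highest value was in 2,4-D replicate 3, and the other treated libraries lay within or below the untreated range.

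Copies with 1 exon ran over far wider ranges. In each, untreated replicate 1 and 2,4-D replicate 3 stood highest in their groups, as they did for Bradi3g49260.1 and Bradi5g15830.1. Untreated replicates 1, 2 and 3 held Bradi3g49270.1 at 156, 3.18 and 3.61 CPM, and treated replicates 1, 2 and 3 held it at 12.1, 15.1 and 572 CPM. Untreated replicate 1 exceeded the mean of the other untreated libraries 45.9-fold, and 2,4-D replicate 3 exceeded the mean of the other treated libraries 42.1-fold. Between the lowest and the highest library the level differed 179.9-fold, on counts of 45 and 7462.

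Its neighbour Bradi3g49280.1 had 179.7, 67.9 and 23.0 CPM untreated and 80.3, 61.5 and 461 CPM treated. The copies of the pair ran in parallel. Bradi3g47110.1 had 93.0, 4.67 and 18.0 CPM untreated and 32.8, 24.4 and 373 CPM treated. Bradi3g47120.1 had 12.1, 1.13 and 4.17 CPM untreated and 5.85, 5.86 and 74.6 CPM treated. Within each library the first of the pair stood 4.12 to 7.72 times above the second in CPM, while the levels of the copies ranged 79.9-fold and 65.9-fold over the libraries. Bradi3g48840.1 had 137, 49.1 and 24.7 CPM untreated and 33.2, 36.2 and 238 CPM treated. In all 5 the highest treated value was in replicate 3 and the highest untreated value in replicate 1, and the groups overlapped.

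**Figure D2:**
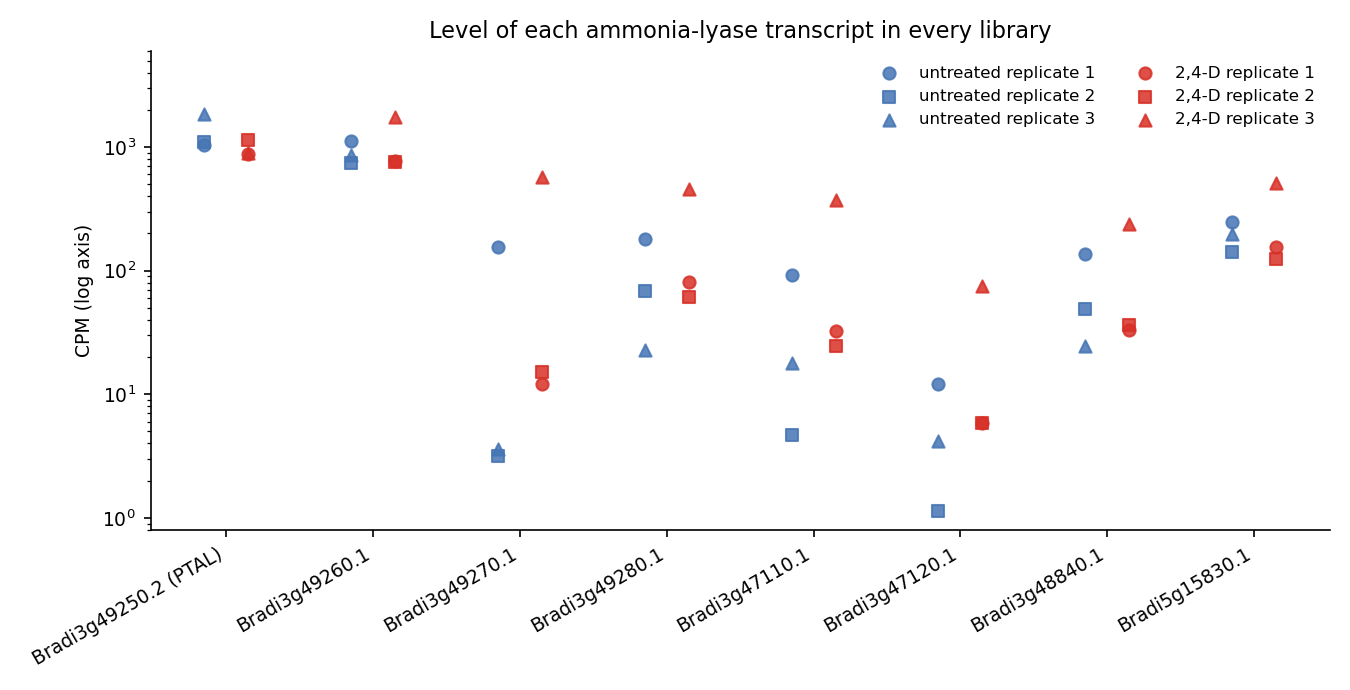
CPM of each ammonia-lyase transcript on a log axis, with 1 point per library, untreated in blue and 2,4-D in red, and the replicate number given by the marker. Red triangles (2,4-D replicate 3) are the highest points for 7 of the 8 transcripts and blue circles (untreated replicate 1) the highest untreated points for the same 7, while PTAL has its highest point in untreated replicate 3.

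Treatment with 2,4-D gave no called difference for any copy. Of the 8 transcripts, 0 had an adjusted p under 0.05 in the edgeR quasi-likelihood test, where 2.18% of all tested transcripts did, and 0 had an unadjusted p under 0.05, against 19.4%. Limma voom also called 0 of 8, against 2.47% of all tested transcripts. DESeq2 gave no p for Bradi3g47110.1, Bradi3g47120.1 and Bradi3g49270.1 and so could not call them. It called none of the other copies, against 11.7% of the transcripts to which it gave an adjusted p. In 0 of 8 copies were the groups free of overlap, against 26.8% of tested transcripts. With 8 members and a background of 2.18%, a count of 0 calls is near what the background gives.

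PTAL was the copy with a lower mean after treatment, 1326 CPM ± 440 untreated and 972 CPM ± 147 treated (SD, n = 3 in each group). Its log2 fold change was -0.52 (SE 0.26, edgeR adjusted p = 0.332), with a 95% interval from 0.451-fold to 1.07-fold. For Bradi3g49260.1 the means were 908 CPM ± 189 and 1088 CPM ± 566, and the log2 fold change was 0.18 (SE 0.41, edgeR adjusted p = 0.833). Its 95% interval ran from 0.581-fold to 2.22-fold. Bradi5g15830.1 had means of 195.9 CPM ± 53.0 and 264 CPM ± 215 and a log2 fold change of 0.36 (SE 0.58, edgeR adjusted p = 0.764).

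For copies with 1 exon the log2 fold changes were larger and much less certain, from 0.45 for Bradi3g48840.1 to 2.24 for Bradi3g47120.1. Bradi3g47120.1 went from 5.79 CPM ± 5.64 to 28.8 CPM ± 39.7 (SD, n = 3; SE 1.28, edgeR adjusted p = 0.384). Its 95% interval spanned 0.572-fold to 38.8-fold. Bradi3g47110.1 went from 38.6 CPM ± 47.6 to 143 CPM ± 199 (SD, n = 3; log2 fold change 1.80, SE 1.395, edgeR adjusted p = 0.514). For Bradi3g49270.1 the means were 54.2 CPM ± 87.9 and 199.9 CPM ± 323 (log2 fold change 1.78, SE 1.97, edgeR adjusted p = 0.654). The SD exceeded the mean in both groups of that copy, and its 95% interval ran from 0.132-fold to 89.3-fold. Bradi3g49280.1 and Bradi3g48840.1 had edgeR adjusted p of 0.598 and 0.826. Over the 8 copies the median log2 fold change was 0.76, against 0.02 over all tested transcripts, and 7 of 8 were positive, against 51.4%.

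With untreated replicate 1 kept, these positive values rested on 2,4-D replicate 3. Without it all 7 positive fold changes became negative, from -2.16 for Bradi3g49270.1 to -0.11 for Bradi3g47120.1 on the log2 scale, and none passed the edgeR test. Without untreated replicate 1 they grew, to 5.86 for Bradi3g49270.1 (SE 2.22, edgeR adjusted p = 0.249), 3.65 for Bradi3g47110.1 (0.283) and 3.43 for Bradi3g47120.1 (0.297). PTAL stayed between -0.64 and -0.27 with any library left out.

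With both libraries left out, 2 libraries remained in each group and the copies differed in direction; this setting was chosen after the values were seen. Bradi3g49270.1 then averaged 3.39 CPM untreated and 13.6 CPM treated, with no overlap (log2 fold change 1.93, SE 0.30, edgeR adjusted p = 0.0780, where 0.742% of tested transcripts were called). The libraries left out held its highest value in each group. Its SE, 1.97 with all libraries, was thus made smaller by the choice, and this p is no independent test. Bradi3g47110.1 averaged 11.4 and 28.6 CPM (edgeR adjusted p = 0.369) and Bradi3g47120.1 2.65 and 5.86 CPM (edgeR adjusted p = 0.437), also without overlap. With 2 libraries against 2, 53.5% of tested transcripts did not overlap, so 3 of 8 copies was no more than the background. Bradi3g49280.1 averaged 45.4 and 70.9 CPM, with overlap (log2 fold change 0.55, edgeR adjusted p = 0.648). PTAL, Bradi3g49260.1, Bradi3g48840.1 and Bradi5g15830.1 had lower treated means, by 0.15 to 0.60 on the log2 scale in the fit, with edgeR adjusted p of 0.386 to 0.854. Again 0 of 8 copies were called.

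**Figure D3:**
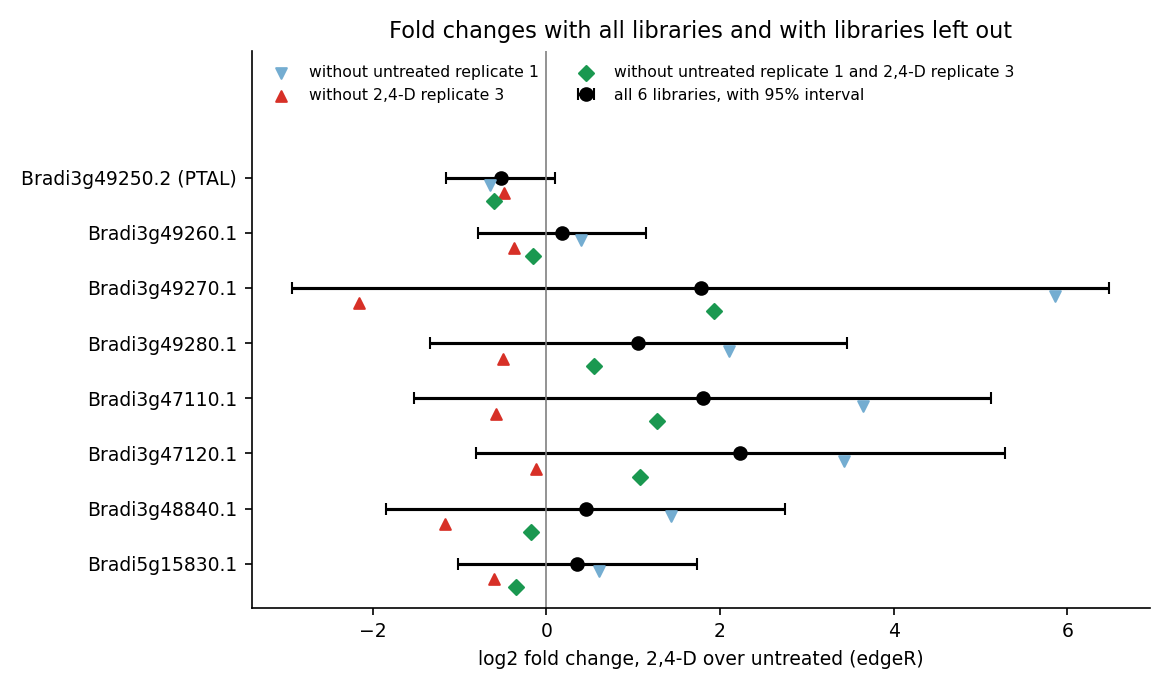
Log2 fold change of each copy, 2,4-D over untreated, from edgeR with all 6 libraries (black, with 95% interval) and with libraries left out (coloured markers). Every black interval includes 0, and leaving out 2,4-D replicate 3 (red triangles) puts all 8 copies below 0.

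Summed over the family, ammonia-lyase transcripts made up 0.298%, 0.211% and 0.297% of all counts in untreated replicates 1, 2 and 3. In treated replicates 1, 2 and 3 the shares were 0.198%, 0.216% and 0.487%. The sum was 2690 CPM ± 501 untreated and 3000 CPM ± 1620 treated (SD, n = 3), a ratio of 1.12 that is far smaller than the spread. Its direction turned without 2,4-D replicate 3, to a log2 ratio of -0.38, against 0.16 with all libraries. No p is given for the sum, since it is a score over chosen members.

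The makeup of the sum differed more between replicates than between groups. PTAL took 35.0%, 52.2% and 61.6% of the family's counts in untreated replicates 1, 2 and 3 and 44.6%, 52.9% and 18.4% in the treated ones. The mean difference of -11.0 percentage points, treated minus untreated, had an exact two-sided permutation p of 0.6, where 3 libraries against 3 cannot go below 0.1. It was -0.883 points without 2,4-D replicate 3, -18.3 without untreated replicate 1 and -8.17 without both. Bradi3g49260.1 held a narrower share, from 29.2% to 39.2% over all libraries. The 6 lower copies together took 27.6% in untreated replicate 1 and 45.8% in 2,4-D replicate 3, against 9.18% to 16.2% in the other 4 libraries.

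**Figure D4:**
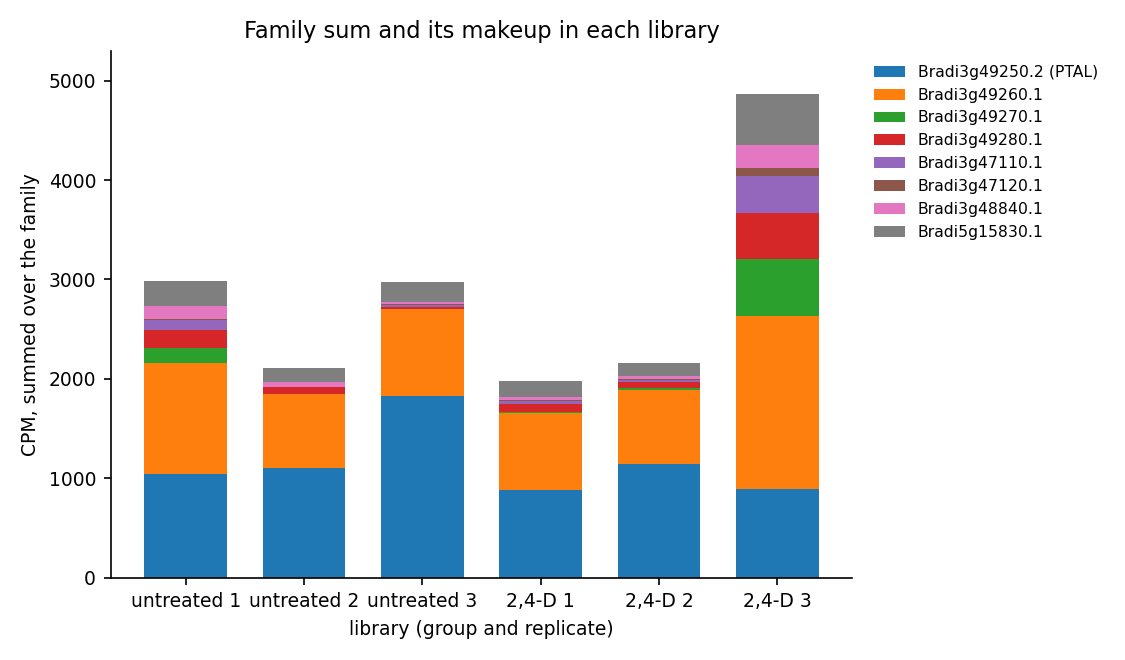
Family sum in CPM for each library, from 0, with each bar divided by copy. The bar of 2,4-D replicate 3 reaches 4867 CPM, against 1975 to 2984 CPM in the other libraries, and its PTAL segment of 894 CPM is the second smallest.

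Replicates spread more for most copies than for other transcripts of like abundance. As the measure of spread, the SD of log2(CPM + 1) within groups was pooled over both groups and set beside that of all tested transcripts within 2-fold of the copy's mean CPM. For Bradi3g49270.1 it was 3.02, and 99.9% of 3030 such transcripts had a smaller value. Bradi3g47110.1 had 2.08 (99.6% smaller), Bradi3g47120.1 1.69 (98.7%), Bradi3g49280.1 1.51 (99.1%) and Bradi3g48840.1 1.42 (98.3%). Bradi5g15830.1 had 0.82 (94.0%) and Bradi3g49260.1 0.53 (77.6%). The PTAL copy, with 0.35, lay near the middle (45.9%). Among all tested transcripts of at least 5 CPM, those with 1 exon had a median SD of 0.60 and those with 2 exons 0.43, so the split of the family by exon number (1.42 to 3.02 against 0.35 to 0.82) went the same way as that of the whole table but was wider. These percentages describe the table and are not tests.

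**Figure D5:**
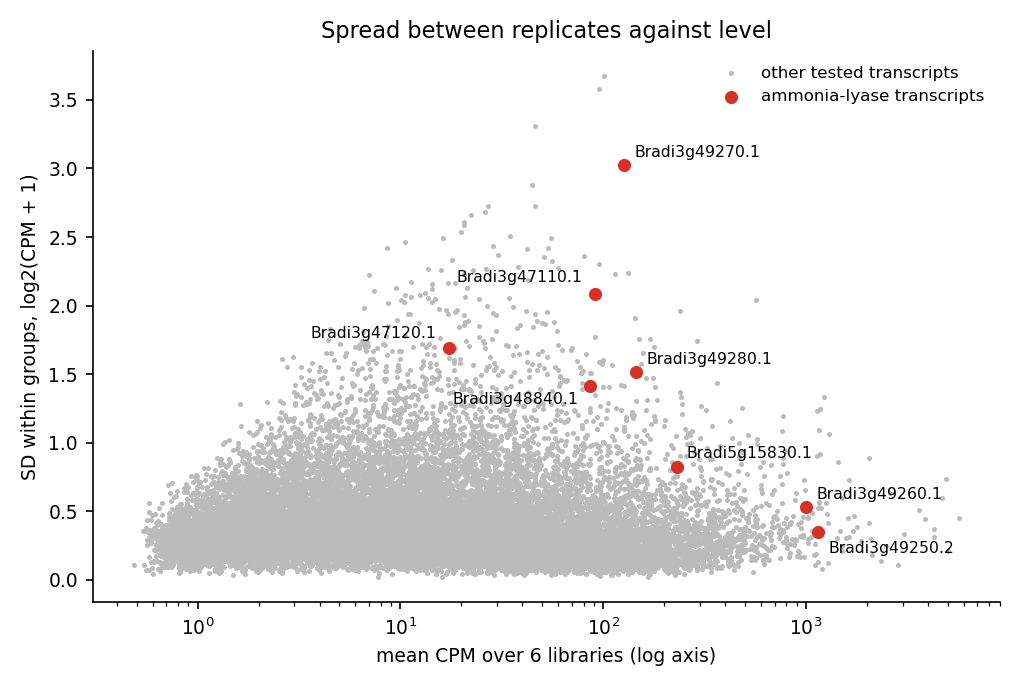
SD within groups of log2(CPM + 1) against mean CPM over the 6 libraries (log axis), with ammonia-lyase transcripts in red and other tested transcripts in grey. Bradi3g49270.1 lies near the top of the cloud at 3.02, and PTAL lies within its bulk at 0.35.

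The same 2 libraries were compared over the whole table. 2,4-D replicate 3 held the highest of the 6 values for 7 of 8 copies and for 24.1% of tested transcripts, and the 7 copies that were highest in untreated replicate 1 among untreated and in 2,4-D replicate 3 among treated libraries compare with 12.9% of tested transcripts. The median log2 ratio of 2,4-D replicate 3 to the mean of the other treated libraries, on CPM + 1, was 2.71 for the 8 copies and -0.12 for all tested transcripts. That of untreated replicate 1 to the other untreated libraries was 1.85 and -0.12. Counting transcripts at least 8-fold higher in both libraries, a limit chosen after the values were seen, gave 42 of 20061 in plain CPM, among them Bradi3g49270.1 and Bradi3g47110.1. On CPM + 1, which damps the ratios of low transcripts, it gave 10, among them Bradi3g49270.1. On that scale no other tested transcript matched or exceeded Bradi3g49270.1 in both ratios.

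Transcripts of other loci followed the family sum closely over the 6 libraries. By Pearson r of log2(CPM + 1), given as a description among 13760 candidates of at least 5 CPM, the nearest were Bradi2g17550.1 (0.989), Bradi1g55650.1 (0.988), Bradi3g42280.1 (0.986), Bradi2g39170.2 (0.986) and Bradi1g44430.1 (0.986). All 5 had their highest value in 2,4-D replicate 3, as the sum did; Bradi2g17550.1 (chromosome 2, 15617992 to 15618661) stood at 49.1 CPM there and at 8.85 to 17.5 CPM elsewhere. None of the 5 was called between the groups (edgeR adjusted p of 0.640 to 0.826). As they were chosen for likeness to the sum, the shared peak and the lack of calls come with the choice and are no separate result.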

How the data were processed

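Messenger RNA libraries were made from total RNA with a strand-specific Illumina kit, per the labels' protocols. The authors deposited raw counts of fragments per transcript, not normalized. Per the file headers, featureCounts 1.4.3 counted read pairs of 50 to 1000 bp over exons of annotation version 2.1, with no strand or multi-overlap option. Other tools in the submitters' processing notes are limma 3.28.7, Subread 1.4.3, bcl2fastq 1.8.4 and FastQC 0.11.3; the alignment settings are not given in the sources used here. The exonic length column, in bp, comes from the same file.

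The members and lists were chosen with earlier results of these data known. CPM is the count over the library total, times 1000000. The test used edgeR 4.0.16 in R 4.3.3 on all transcripts, with TMM scaling, the default filter by group (minimum count 10), robust dispersions and the quasi-likelihood F test, with Benjamini-Hochberg adjustment over all 20061 tested transcripts. It was tested on simulated data. The SE of a log2 fold change is its size over the root of F. Alternatives were DESeq2 1.42.0, limma 3.58.1 with voom, other scalings, filters, counts per locus, a replicate block and each library left out. By rule, all members and the 5 transcripts of other loci with the highest r to the family sum were named. Bradi3g49255.1 was named for its position, and Bradi3g49300.1, Bradi3g49305.1 and the transcripts closest to Bradi3g49270.1 after their values were seen. P-values of the edgeR, DESeq2 and limma fits set the group difference against the spread between replicates, 3 per group with all libraries. The permutation p came from relabelled libraries, and the sign-flip p of the level order used all libraries of both groups. Intervals of fold changes include the spread between replicates; the floor of 3 counts covers counting error only. Lists of other pathway enzymes and tissue markers, as patterns on product descriptions, were not used here: the gene table at hand names another assembly and has no descriptions, and 0 of 31694 loci matched it. For the same reason no sequences were printed.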

Additional observations from a re-analysis of the deposited data

How the results depend on the processing

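The count of 0 called copies was the same under all 8 other scalings, filters, tools and designs, with each library left out, and with both untreated replicate 1 and 2,4-D replicate 3 left out, an alternative chosen after the data were seen. Over these, the lowest adjusted p of any copy was 0.0780, for Bradi3g49270.1 with both libraries left out. DESeq2 gave no p for Bradi3g47110.1, Bradi3g47120.1 and Bradi3g49270.1, so it could not call these copies. Leaving out one library gave log2 fold changes of -0.37 to 0.40 for Bradi3g49260.1, -2.16 to 5.86 for Bradi3g49270.1, -0.49 to 2.103 for Bradi3g49280.1, -0.58 to 3.65 for Bradi3g47110.1, -0.11 to 3.43 for Bradi3g47120.1, -1.16 to 1.44 for Bradi3g48840.1 and -0.60 to 0.70 for Bradi5g15830.1; every negative value came without 2,4-D replicate 3. Without that library and untreated replicate 1, Bradi3g49260.1 (-0.15), Bradi3g48840.1 (-0.17) and Bradi5g15830.1 (-0.35) were also negative. With a replicate block Bradi3g48840.1 was at -0.0199, and 0 copies were called. Same-numbered libraries deviated from their group means with correlations of -0.093, 0.350 and 0.093. The value of 0.350, for replicate 2, was the highest of any untreated with any treated library. Untreated replicate 1 was closest to 2,4-D replicate 3 (0.236). These values do not settle whether the numbers pair the libraries. On TMM-adjusted library sizes the log2 ratio of the family sum was 0.09, and single libraries moved it between -0.38 and 0.38. The PTAL share difference ran from -18.3 to -0.883 percentage points; with 2 libraries in a group its exact permutation test cannot go below 0.2. The planned count over other pathway enzymes was not run, as its list could not be joined to the table. Intervals were wide for copies with 1 exon: the 95% interval of Bradi3g49270.1 ran from 0.132-fold to 89.3-fold. What depth and the spread between libraries each added to this was not tested.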

Other observations

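The transcripts closest to Bradi3g49270.1 itself, chosen after its values were seen, were Bradi1g65520.1 (Pearson r of 0.996 over the 6 libraries, as a description), Bradi3g44060.1 (0.993), Bradi4g36830.1 (0.993), Bradi1g22740.1 (0.993) and Bradi4g05190.1 (0.989). Bradi1g65520.1 (chromosome 1, 64770085 to 64772012) stood at 84.9, 10.8 and 11.2 CPM in the untreated libraries, in the order of their numbers, and at 24.4, 29.5 and 214 CPM in the treated ones. Bradi4g05190.1 (chromosome 4, 4265837 to 4267224) had 35.8, 2.83 and 3.61 CPM untreated and 9.60, 11.8 and 153 CPM treated. The other 3 ran over narrower ranges, 47.5 to 81.0 CPM for Bradi3g44060.1, 3.96 to 19.6 CPM for Bradi4g36830.1 and 3.04 to 10.4 CPM for Bradi1g22740.1. By this choice, all 5 shared with Bradi3g49270.1 the high values in untreated replicate 1 and 2,4-D replicate 3 and the low ones in untreated replicates 2 and 3. None of the 5 was called between the groups (edgeR adjusted p of 0.491 to 0.874), which also comes with the choice. The files give no product for them.

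Loci beside the copies were examined in the same way. Among 25 annotated loci, 3 on each side of a copy or group of copies and the locus in the PTAL intron, 16 transcripts were tested. Of these, 2 had their highest value in 2,4-D replicate 3, against 7 of the 8 copies and 24.1% of all tested transcripts. In the edgeR test 1 of the 16 was called, against 2.18% of all tested transcripts. The transcript called among them was Bradi3g49300.1, beyond the group of 4 (chromosome 3, 50732385 to 50736016). It fell from 18.0 CPM ± 8.504 to 3.58 CPM ± 0.723 (SD, n = 3; log2 fold change -2.43, SE 0.42, edgeR adjusted p = 0.0416), with no overlap between the groups, as in 26.8% of tested transcripts. It overlaps Bradi3g49305.1 on the opposite strand, and without strand the reads from the shared stretch cannot be told apart. What this did to either count was not analysed. The call was lost without any single library (edgeR adjusted p of 0.0545 to 0.144) and with the replicate block (0.0548). DESeq2, which called 11.7% of the transcripts it gave an adjusted p, gave 3.11e-06.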
